A study of Mus musculus and Bos taurus with 6 samples.

Results

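Adjoining SOX9 peaks are bound regions that lie almost edge to edge. They were defined as all peaks on numbered chromosomes whose gap to the previous or the next peak of the same list was below 500 bp, counted as the uncovered bases between the 2 peak edges. In the mouse list 415 of the 6402 peaks on numbered chromosomes met this rule (6.48%), and in the bovine list 1364 of 11796 (11.6%). Together 1779 of the 18407 peaks of both complete lists were members. A set of peaks joined by such gaps is called a run here, and a peak without such a neighbour is called a single peak.

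The data are ChIP-seq of SOX9 in fetal testis, with 2 SOX9 libraries and 1 library of input DNA in each species. Mouse gonads came from the Swiss OF1 strain at E13.5, and bovine gonads from Holstein fetuses at day 90. In both species the powdered whole gonad was fixed with disuccinimidyl glutarate and then with formaldehyde, and a rabbit antibody against SOX9 was used. Each species has 1 deposited peak list for all of its libraries, with positions and widths but no height or read count. There was thus no spread between replicates to set a difference against, the depth is unknown, and no p-value is given. Intervals below are 95% intervals of counts, shares or medians that cover counting error only. Those of a difference of medians are wider, as described below. Peaks of the same run enter together but are counted singly, so intervals over member peaks can be too narrow.

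SOX9 is a transcription factor with an HMG box, a domain that inserts into the minor groove and bends DNA. In the fetal testis it drives the differentiation of Sertoli cells, the supporting cells that enclose the germ cells. SOX9 can bind a lone site as a monomer or a pair of facing sites as a dimer. Such facing sites lie a few bases apart and fall within 1 peak, so adjoining peaks describe a coarser scale. Separate binding sites in 1 regulatory element and 1 bound stretch reported in pieces cannot be told apart in lists that give only peak edges. No genome sequence or gene annotation of the builds mm9 and UMD3.1 was used here, so regions are given by position and no gene is named.

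Most adjoining peaks came as simple pairs. The 415 mouse peaks formed 204 runs, of which 197 held 2 peaks and 7 held 3. The 1364 bovine peaks formed 665 runs, of which 633 held 2 peaks, 30 held 3 and 2 held 4. Runs of 3 or more thus made up 3.43% of mouse runs (1.39 to 6.94%) and 4.81% of bovine runs (3.31 to 6.73%). Of all gaps between consecutive peaks, 3.31% were below 500 bp in mouse (211 of 6384, interval 2.88 to 3.77%) and 5.94% in cattle (699 of 11767, interval 5.52 to 6.38%). These shares follow from the rule and are given as a description. Members held 5.62% of the bases covered by mouse peaks and 9.77% of those covered by bovine peaks.

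The gaps were short, and they became less frequent with length well before the limit of the rule was reached. The median gap was 116 bp in mouse (interval 99 to 137 bp) and 89 bp in cattle (77 to 101 bp). Quartiles were 43.5 and 243.5 bp in mouse and 33 and 224.5 bp in cattle. Gaps under 50 bp made up 27.5% of the mouse gaps (58 of 211) and 33.9% of the bovine gaps (237 of 699). No peaks overlapped or touched at a gap of 0 bp in either list, while 4 mouse and 6 bovine gaps measured 1 bp. Peaks of both lists could therefore stand side by side with a single uncovered base between them.

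In mouse the count fell from 91 gaps below 100 bp (Poisson interval 73.3 to 112) to 55 between 100 and 200 bp, 31 between 200 and 300 bp, 20 between 300 and 400 bp and 14 between 400 and 500 bp. In cattle the first step was steeper, from 374 gaps below 100 bp (337 to 414) to 118 in the next 100 bp, followed by 90, 73 and 44. No step was seen at 500 bp. The adjacent 100 bp beyond the limit held 16 mouse and 43 bovine gaps. Between 1 and 2 kb there were 31 mouse and 173 bovine gaps, which is 2.11 to 4.40 and 14.8 to 20.1 gaps per 100 bp of gap length (Poisson intervals).

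**Figure D1:**
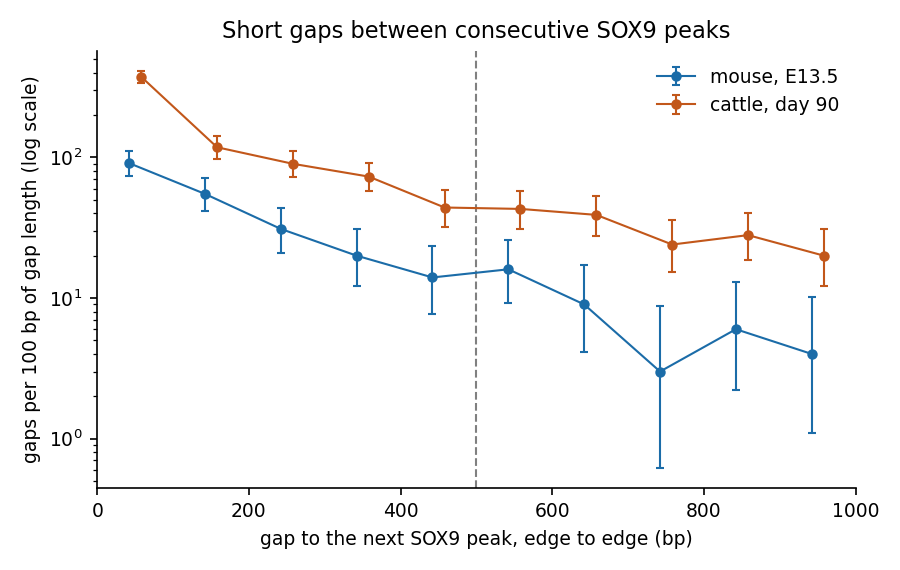
Number of gaps between consecutive SOX9 peaks per 100 bp of gap length (log scale) against the edge-to-edge gap, with exact Poisson 95% intervals, and the 500 bp limit as a dashed line. Counts fall from 91 in mouse and 374 in cattle in the first bin to 14 and 44 in the last bin inside the limit, and go on without a step to 16 and 43 in the bin just outside.

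The values at the limit were close to each other. In mouse, the widest gaps inside measured 498 bp (chromosome 8, 46022305 to 46024061), 495 bp (chromosome 7, 90014004 to 90016735) and 475 bp (chromosome 12, 88287351 to 88289004). The narrowest mouse gaps outside measured 502, 517 and 519 bp. In cattle, the widest gaps inside were 498, 498 and 495 bp, and the narrowest outside were 500, 501 and 511 bp. Gap lengths thus ran on across the limit, and widths at gaps beyond it are given below.

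The closest pairs included narrow and wide peaks. The mouse gaps of 1 bp lay on chromosome 5 (105844036 to 105845440), between peaks of 709 and 695 bp, on chromosome 6 (120615097 to 120617733), between peaks of 1311 and 1325 bp, on chromosome 7 (134655164 to 134656688), between peaks of 961 and 563 bp, and on chromosome 19 (10955855 to 10956845), between peaks of 425 and 565 bp. The fifth closest mouse pair, with a gap of 2 bp, joined peaks of 788 and 1064 bp on chromosome 1 (82286711 to 82288564). The pair on chromosome 19 was 991 bp long in all, the shortest mouse run and close to the width of a typical single peak. Among the bovine gaps of 1 bp, the first 5 by position were on chromosome 5 (8443382 to 8445370, peaks of 1020 and 968 bp), chromosome 7 (1592204 to 1594328, 1164 and 960 bp), chromosome 15 (6886081 to 6888005, 953 and 971 bp), chromosome 17 (12552965 to 12554599, 799 and 835 bp) and chromosome 19 (5220828 to 5222400, 537 and 1035 bp). The narrower partner had 0.586 to 0.989 times the width of the wider one in these 5 mouse pairs and 0.519 to 0.981 times in these 5 bovine pairs, so both even and uneven pairs were among the closest.

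Adjoining peaks were narrower than single peaks at the median, but a run as a whole was longer. The median width of members was 781 bp in mouse (751 to 818 bp), or 0.808 times that of single peaks, and 1005.5 bp in cattle (981 to 1025 bp), or 0.800 times. Members were also found anew after only the widest 50% of peaks were kept. A peak left without a neighbour under 500 bp then counts among the others, so the groups are not those of the full lists. In mouse this gave 38 members, with a median 83.5 bp above that of the others and an interval from -87 to 243 bp. In cattle it gave 121 members, and the difference was -82 bp with an interval from -139 to 17 bp. Both intervals include 0. Dropping only the narrowest 25% gave -102 bp in mouse (-164 to -41 bp) and -125 bp in cattle (-157 to -74 bp). Those intervals leave out 0. In the full lists the member median was the lower one on 17 of 18 mouse and all 29 bovine chromosomes. The median length of a run, from the start of its first to the end of its last peak, was 1856.5 bp in mouse (1780 to 1969 bp), against a median width of 966 bp for the 5987 single peaks. In cattle it was 2212 bp (2144 to 2284 bp), against 1256.5 bp for 10432 single peaks. Run length exceeded the median single peak 1.92-fold in mouse and 1.76-fold in cattle. Gaps took up little of this length, at a median of 6.49% in mouse and 4.36% in cattle. The summed widths of the peaks in a run, without the gaps, still had medians of 1699 bp in mouse and 2058 bp in cattle. A run contains at least 2 peaks by definition, so its greater length is a description and no test was made.

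**Figure D2:**
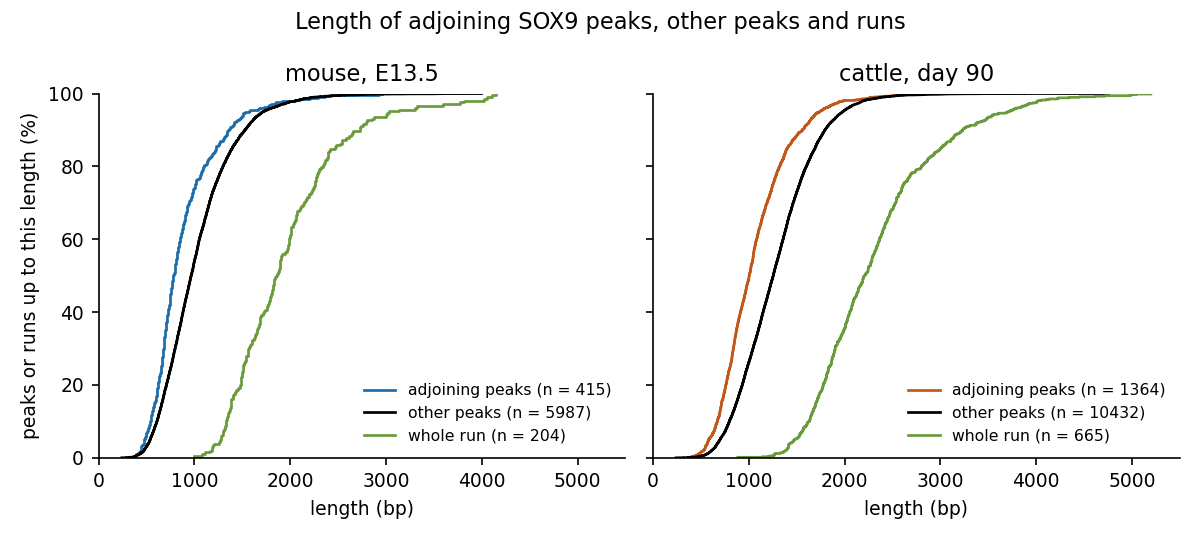
Cumulative share of adjoining peaks (coloured), single peaks (black) and whole runs (green) up to the length on the x axis in bp, for mouse on the left and cattle on the right. Adjoining peaks lie to the left of single peaks, with medians of 781 against 966 bp in mouse and 1005.5 against 1256.5 bp in cattle, and whole runs lie to the right of both.

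Runs reached the lengths that only the broadest single peaks attain. A run holds at least 2 peaks, so this follows from the definition. Consecutive peaks 10 to 100 kb apart had summed widths with medians of 1909.5 bp in mouse and 2486 bp in cattle. Across gaps under 500 bp these medians were lower, at 1680 and 2037 bp. In mouse 79 of 204 runs were longer than 2 kb (38.7%, interval 32.0 to 45.8%), where 2.22% of all mouse peaks were that wide. In cattle 429 of 665 runs were (64.5%, interval 60.7 to 68.2%), where 4.34% of all peaks were. The individual members were not often broad. Only 8 of the 415 mouse members (1.93%) and 27 of the 1364 bovine members (1.98%) exceeded 2 kb. The mouse share was close to that of the list, and the bovine share was below it. The 95th percentile of single peaks was exceeded by 60.3% of mouse runs and 65.7% of bovine runs.

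Within pairs, the median of the wider partner was near that of single peaks in mouse and below it in cattle. The narrower partner is the smaller one by definition, and the same split for consecutive peaks farther apart is given below. In the 197 mouse pairs the wider partner had a median of 954 bp (890 to 1016 bp) and the narrower one a median of 684 bp (658 to 705 bp). In the 633 bovine pairs these medians were 1175 bp (1140 to 1215 bp) and 833 bp (815 to 858 bp). The wider bovine partner was thus 81.5 bp below the median of single peaks, while the wider mouse partner was 12 bp below it, with an interval that includes that median. In 51.3% of mouse pairs and 59.2% of bovine pairs neither partner was above the median of single peaks. Both partners were above it in 17 mouse pairs (8.63%) and 43 bovine pairs (6.79%). The same shares were not computed for consecutive peaks farther apart.

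The imbalance between partners was not peculiar to short gaps. The narrower peak had a median of 0.737 times the width of the wider one across mouse gaps under 500 bp (0.694 to 0.757) and 0.752 times across bovine ones (0.730 to 0.764). Consecutive peaks 10 to 100 kb apart gave 0.725 in mouse and 0.753 in cattle, within these intervals. What differed was the size of both partners. At 10 to 100 kb the wider and narrower peaks measured 1110.5 and 774 bp in mouse, against 948 and 683 bp across gaps under 500 bp. In cattle they measured 1444 and 1026 bp, against 1180 and 838 bp. Peaks with gaps from 500 bp to 1 kb resembled the members, with a median width of 808 bp in mouse (38 gaps, interval 714 to 954 bp) and 1031.5 bp in cattle (154 gaps, interval 994 to 1103 bp). From 1 to 10 kb the median rose to 929.5 bp in mouse and 1181 bp in cattle. In cattle the narrow widths thus extended beyond the 500 bp limit. The mouse interval left out the 966 bp of single peaks but included the 929.5 bp, so the mouse values leave this undecided. These classes are set by a single gap, so a peak in them can still be a member through its other gap.

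The widths of the 2 partners were only loosely related. Spearman's rho between the first and the second peak was 0.090 over 211 mouse gaps and 0.13 over 699 bovine gaps, and 0.026 and 0.017 at 10 to 100 kb. These values are descriptions across peaks of 1 list. Neither side was favoured beyond counting error. The peak at the lower coordinate was the wider one in 55.9% of mouse gaps (118 of 211, interval 48.9 to 62.7%) and 52.4% of bovine gaps (366 of 699, interval 48.6 to 56.1%). Centres of adjoining peaks lay a median of 985.5 bp apart in mouse and 1159.5 bp in cattle. The smallest centre-to-centre distance was 496 bp in mouse and 444.5 bp in cattle, and the largest was 2176 and 2231.5 bp.

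Narrow peaks were members more often than wide ones. Each list was divided by width into 10 classes of nearly equal size. In mouse, 11.1% of the narrowest class (241 to 603 bp, 71 of 641 peaks) and 11.7% of class 2 were members, against 6.48% of all mouse peaks. The share was 3.91% in class 6 and stayed between 3.28 and 5.0% from there on. In cattle 24.8% of the narrowest class (241 to 774 bp, 293 of 1180 peaks) were members and 4.83 to 6.02% of the 3 widest classes, against 11.6% of all bovine peaks. Width enters the gap through the peak edges, so the 2 measures are not independent, and no test was made.

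**Figure D3:**
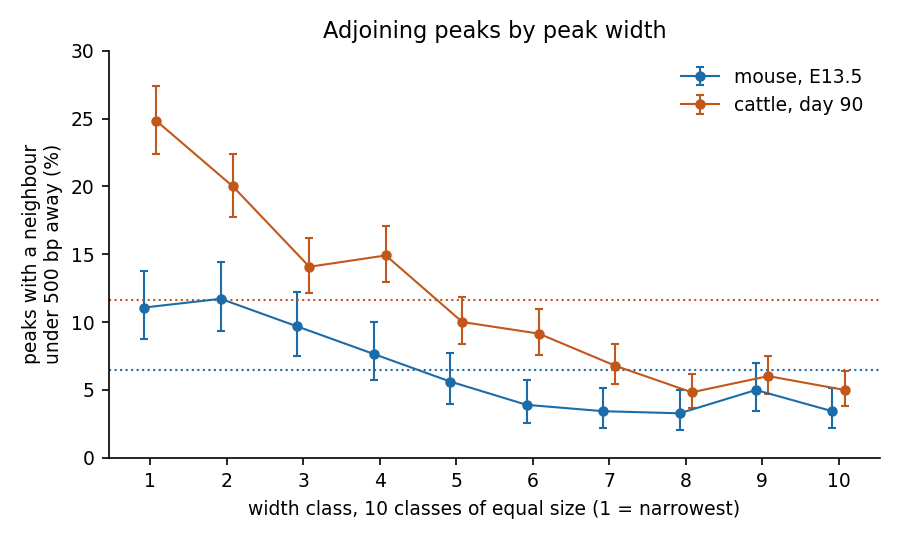
Share of peaks with a neighbour under 500 bp away in each of 10 classes of the list by width, from narrowest to widest, with exact binomial 95% intervals, and the share of the whole list as a dotted line. The share is 11.1% in the narrowest and 3.43% in the widest mouse class, and 24.8 and 5.0% in those of cattle. Peaks of the same run are counted singly, so the intervals can be too narrow.

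The 7 longer mouse runs included the longest run of that list. It held 3 peaks of 2931, 717 and 422 bp on chromosome 18 (47526410 to 47530553), separated by gaps of 42 and 32 bp, and was 4144 bp long. A broad peak was thus followed by a pair of small ones. The other 4 mouse runs of 3 peaks named by total length lay on chromosome 7 (140313119 to 140316893, 3775 bp, and 87169640 to 87172425, 2786 bp), chromosome 3 (61166787 to 61169795, 3009 bp) and chromosome 1 (132612075 to 132614611, 2537 bp). Their peaks were more even in the run at 87169640, which measured 774, 883 and 828 bp. The next longest mouse runs were pairs. They lay on chromosome 5 (3340682 to 3344786, 4105 bp), chromosome 19 (26678513 to 26682568, 4056 bp), chromosome 10 (41994625 to 41998648, 4024 bp) and chromosome 11 (95865673 to 95869487, 3815 bp). All 4 contained a peak wider than 2 kb, of 2418, 2100, 2960 and 2206 bp.

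In cattle, the 2 runs of 4 peaks lay on chromosomes 1 and 8. The run on chromosome 1 (8953551 to 8957567) had peaks of 760, 650, 1069 and 869 bp with gaps of 203, 6 and 460 bp. The run on chromosome 8 (30008147 to 30011987) had peaks of 841, 1048, 974 and 849 bp with gaps of 9, 81 and 39 bp, so that only 129 of its 3841 bp were uncovered. The longest bovine run was a set of 3 peaks of 1548, 1933 and 1563 bp on chromosome 7 (4688073 to 4693274), 5202 bp in all. Runs of 3 peaks followed on chromosome 8 (98271076 to 98276120, 5045 bp), chromosome 23 (7234951 to 7239944, 4994 bp), chromosome 24 (2814116 to 2819100, 4985 bp) and chromosome 19 (38176119 to 38180838, 4720 bp). The 5 longest bovine runs were all longer than the widest single bovine peak of 4764 bp except the one on chromosome 19. Inner peaks of longer bovine runs had a median of 987 bp (34 peaks, interval 790 to 1141 bp) and outer peaks 1104.5 bp (64 peaks, 947 to 1318 bp), which overlap.

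Outside their own run, adjoining peaks stood in emptier surroundings than single peaks at the median of the full lists. The nearest peak outside the run was a median of 111 kb away in mouse (87.6 to 148 kb, 204 runs), and the nearest peak to a single peak 72.7 kb (69.4 to 75.6 kb). In cattle the medians were 46.5 kb (40.8 to 52.9 kb, 665 runs) and 34.7 kb (33.7 to 36.0 kb). Both kinds of region are at least 500 bp from any other by construction. The median was larger for runs than for single peaks on 15 of 18 mouse and 23 of 29 bovine chromosomes. Within 10 kb, 7.84% of mouse runs had another peak, with an interval (4.55 to 12.4%) that includes the 9.01% of all mouse regions. In cattle 16.8% of runs did (14.1 to 19.9%), below the 21.2% of all bovine regions. Within 100 kb the shares were 46.6% of mouse runs against 60.6% of single peaks, and 70.2% of bovine runs against 77.5%.

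**Figure D4:**
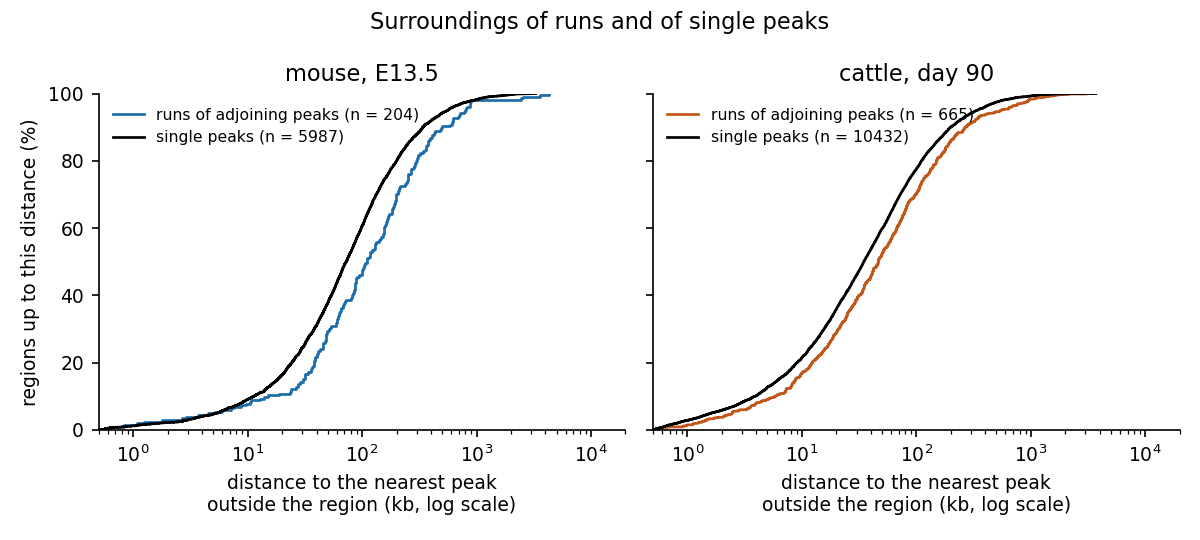
Cumulative share of runs (coloured) and single peaks (black) against the distance from the region to the nearest peak outside it, in kb on a log scale, for mouse on the left and cattle on the right. Runs lie to the right of single peaks, with medians of 111 against 72.7 kb in mouse and 46.5 against 34.7 kb in cattle, and the mouse curves run together below 10 kb.

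Peak width moves with this distance in these lists, so members and single peaks were also set side by side within 4 width classes of equal size. The unit here is the peak, and each member carries the distance of its run. Partners thus repeat the same value, and the intervals of members can be too narrow. In mouse the nearest outside peak was farther from members than from single peaks in each class, with medians of 88.4 and 61.0 kb in the narrowest class and 186 and 95.7 kb in the widest. In cattle it was farther in the narrowest class (46.3 and 29.5 kb) and in class 2 (56.5 and 30.0 kb). In class 3 the bovine medians were 40.2 and 35.3 kb, and in the widest class they were 39.0 and 44.2 kb, with overlapping intervals in both. The bovine contrast was thus seen among peaks up to 1224 bp wide. Within 10 kb, 24.4% of members and 17.4% of single peaks in the widest bovine class had an outside peak. In class 3 these shares were 21.0 and 19.4% in cattle and 12.7 and 9.45% in mouse. The share was lower for members in all other classes. In mouse, the members with such a peak numbered only 15, 6, 7 and 4 from the narrowest to the widest class. No intervals were computed for these shares, so the mouse order is not read further. Runs and single peaks were also found anew on shortened lists, a step added after the values were seen. Members left without a neighbour under 500 bp count there as single peaks, and dropped peaks no longer count as neighbours. The groups and distances are thus not those of the full lists. Without the narrowest 25% of peaks the medians of runs and single peaks were 203 and 98.6 kb in mouse and 56.3 and 48.1 kb in cattle, where the interval for runs (41.6 to 73.2 kb) included the value for single peaks. Among the widest 50% they were 241 and 155 kb in mouse, with an interval for runs from 112 to 609 kb that included the value for single peaks. In cattle they were 69.8 and 73.8 kb, the reverse order, with an interval for runs from 46.1 to 135 kb that again included the value for single peaks.

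Adjoining peaks occurred on every numbered chromosome of both lists. In mouse the share of gaps under 500 bp was highest on chromosomes 14 (13 of 253 gaps, 5.14%), 5 (20 of 435, 4.60%) and 18 (9 of 203, 4.43%). It was lowest on chromosomes 15 (6 of 294, 2.04%), 19 (5 of 237, 2.11%) and 11 (12 of 551, 2.18%). No mouse chromosome had an interval that left out the 3.31% of the list, so no single one stood out from the list beyond counting error. In cattle chromosomes 24 (22 of 219, 10.0%, interval 6.40 to 14.8%) and 8 (43 of 449, 9.58%, interval 7.02 to 12.7%) lay above the 5.94% of the list. Chromosome 16 came next with 8.44% (32 of 379, interval 5.85 to 11.7%). Chromosome 3 (18 of 654, 2.75%, 1.64 to 4.32%) and chromosome 22 (10 of 329, 3.04%, 1.47 to 5.52%) lay below the list, followed by chromosome 20 with 4.42% (8 of 181). The intervals were not adjusted for the 29 chromosomes compared.

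The share of short gaps was below that of the list on the mouse chromosomes richest in SOX9 regions, though within counting error. On the richest bovine ones it was near that of the list. Across the 18 mouse chromosomes this share and the number of regions per Mb had a Spearman's rho of -0.69. The dense mouse chromosomes 11 and 19, with 4.56 and 4.02 regions per Mb, were among the 3 with the lowest share. Their intervals, 1.13 to 3.77% and 0.688 to 4.85%, include the 3.31% of the list. Across the 29 bovine chromosomes rho was -0.20, and the dense chromosomes 19, 25 and 18 had shares of 6.03, 6.19 and 6.60%, all near that of the list. These correlations are descriptions across chromosomes, and both measures rest on the same peaks. The denominator of the share grows with the regions, which by itself lowers rho where runs per Mb do not rise with them. Runs per Mb differed in the same comparison. In mouse they were nearly unrelated to regions per Mb (rho 0.090), and in cattle they rose with them (rho 0.59).

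**Figure D5:**
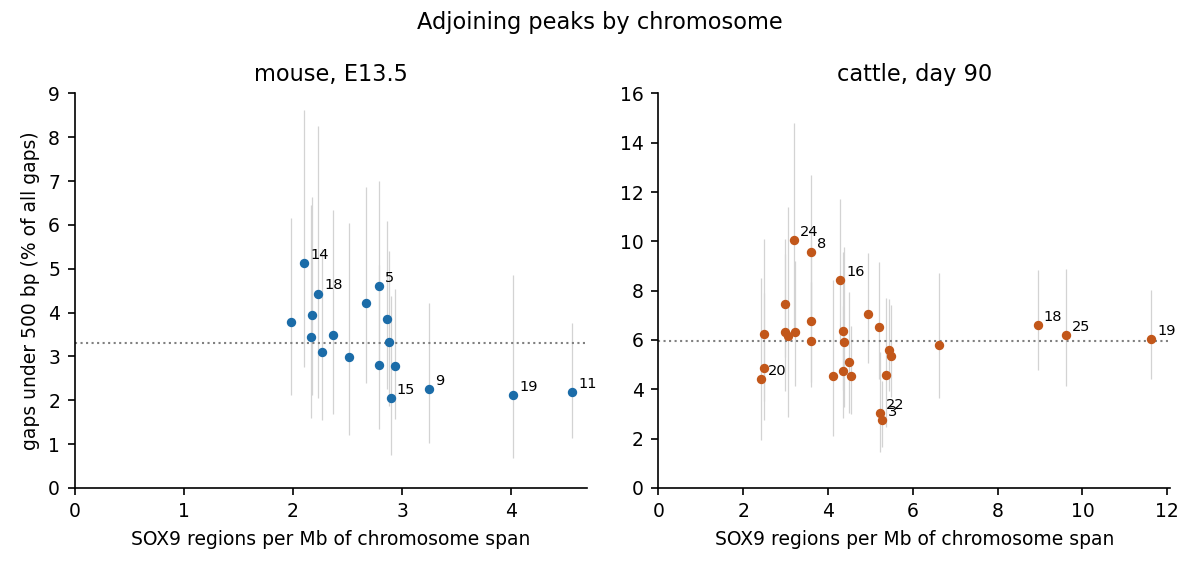
Share of gaps under 500 bp on each chromosome, with exact binomial 95% intervals, against the number of SOX9 regions per Mb between the outermost peaks, for mouse on the left and cattle on the right. Dotted lines mark the 3.31% and 5.94% of the whole lists, and numbers name the 3 highest, 3 lowest and 3 densest chromosomes.

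Windows of 1 Mb show how members were distributed along the chromosomes. Of 1692 mouse windows that held a peak, 185 held a member, and 161 of these held exactly 2, the number in a lone pair. In cattle 536 of 2034 windows held a member, and 418 of these held exactly 2. The fullest mouse windows were on chromosome 1 (82000001 to 83000000) and chromosome 4 (134000001 to 135000000) with 6 members each, in 3 runs. In the window on chromosome 1 all 6 peaks were members, and on chromosome 4 there were 10 peaks in all. The next place was shared by 15 mouse windows with 4 members. The fullest bovine window was on chromosome 18 (46000001 to 47000000), where 10 of 27 peaks formed 5 runs. It was followed by chromosome 25 (39000001 to 40000000) with 9 members of 24 peaks, and by windows with 8 members on chromosomes 16 (52000001 to 53000000), 18 (63000001 to 64000000) and 19 (39000001 to 40000000). Successive runs lay less than 10 kb apart in 0 mouse and 3 bovine cases.

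The stretch between the outermost peaks of each chromosome was divided into 10 equal segments. The share of members ranged from 4.72 to 9.25% over these segments in mouse, with the highest value in segment 3 from the start (42 of 454 peaks, interval 6.75 to 12.3%). In cattle it ranged from 10.2 to 14.4%, with the highest value in segment 8 (167 of 1161 peaks, interval 12.4 to 16.5%). Both of these intervals lie above the 6.48% and 11.6% of the lists, but each was picked from 10 segments and was not adjusted. They also count peaks of the same run singly, although these enter together. The intervals are thus too narrow to place either segment above its list.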

How the data were processed

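For each species the authors deposited a single list of peak positions, which per the labels stands for both SOX9 libraries and the input. Beside its position a peak has only its width in bp, which was checked to equal end minus start. The builds mm9 and UMD3.1 are given per the submitters' processing notes. Which aligner and peak caller were used, with which threshold, and whether nearby peaks were joined is not given in the sources used here. Each of these can set how often 2 peaks lie side by side. Starts are printed counted from 1.

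Peaks were sorted by chromosome and start. A gap is the next start minus the previous end. Mouse chromosome 16 and the Y were not analysed here. The finding of runs was tested on 20 simulated lists. Shares have exact Clopper-Pearson intervals, counts exact Poisson intervals and medians order-statistic intervals, all at 95% (scipy 1.17.1, pandas 2.3.3, Python 3.11.15). For a difference of medians the outer limits of the 2 median intervals were subtracted, which gives a wider interval.

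The members, and the rule for the regions to be named, were chosen with earlier results of these data known. Named per species were the 5 runs with most peaks, the 5 longest, the 5 smallest gaps, the 3 gaps on each side of the limit, the 3 chromosomes with the highest and lowest shares and the 3 fullest windows of 1 Mb. Positions relative to genes and sequences, which had been planned, were not run, since the reference at hand was of another mouse build and positions were not converted. Alternatives were gap limits of 250 and 1000 bp, adding the X, keeping the widest 50% or dropping the narrowest 25% of peaks, leaving out the chromosome with the most members, and isolated pairs alone.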

Additional observations from a re-analysis of the deposited data

How the results depend on the processing

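Of 132 alternative values over 10 results and both species, 87 stayed within the interval of the reported value, or within 1.5 times for counts of members. A further 44 moved beyond it and 1 changed sign. The interval is at 95%, except for differences of medians, where it is the wider one described above. The distances of single peaks in shortened lists, given with the results, were added after the data were seen and are not among these. Adding the X, leaving out mouse chromosome 5 or bovine chromosome 19, and using isolated pairs alone moved none of the results recomputed under them. A limit of 250 bp gave 2.55% of gaps in mouse and 4.67% in cattle, median gaps of 85 and 62 bp, and a bovine run length of 2100 bp. A limit of 1000 bp gave 3.90% and 7.25% of gaps, median gaps of 148 and 136 bp, and a bovine run length of 2351.5 bp. These follow from the limit.

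Dropping narrow peaks moved more results than any other alternative, and the cause was not tested for each. It raises widths by construction. Members were found anew in each shortened list, so a peak left without a neighbour under 500 bp counts among the others. Without the narrowest 25% of peaks, the rule gave 145 mouse and 451 bovine members, at 1.52% and 2.61% of gaps. Median widths were then 966 bp for mouse members and 1068 bp for other mouse peaks, a difference of -102 bp (-164 to -41 bp). In cattle they were 1239 and 1364 bp, a difference of -125 bp (-157 to -74 bp). Runs measured 2233.5 and 2760 bp, and the nearest outside peak lay 203 and 56.3 kb away. The bovine ratio of partners was 0.810, and 1.39% of mouse runs held 3 or more peaks.

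With only the widest 50% of peaks, the rule gave 38 mouse and 121 bovine members, at 0.597% and 1.05% of gaps. In mouse, members (1295.5 bp) were then wider than the others (1212 bp), by 83.5 bp with an interval from -87 to 243 bp. The bovine widths were 1424 and 1506 bp, a difference of -82 bp with an interval from -139 to 17 bp. Median gaps were 167 and 141.5 bp, run lengths 2805 and 3269 bp, partner ratios 0.795 and 0.848, and outside distances 241 and 69.8 kb. Of the mouse runs, 0 held 3 or more peaks. No paired analysis was possible because the replicates have no values of their own, and so none could be left out. Depth is unknown, so gaps in which signal was present but not called cannot be recognised.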

Other observations

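The X chromosome lay outside the rule and gave few adjoining peaks. In cattle 8 of 191 gaps on the X were below 500 bp (4.19%, exact interval 1.83 to 8.09%), an interval that includes the 5.94% of the numbered chromosomes. The median width was 895 bp over the 16 bovine X members and 1144 bp over the other bovine X peaks. In mouse 0 of 16 X gaps were below 500 bp, with an exact interval from 0 to 20.6%, and the smallest of these gaps measured 132389 bp.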
